A study of Mus musculus with 11 samples.

Results

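Transcripts of 33 genes known from blood vessel endothelium were followed in muscle stem cells sorted by FACS. The genes were chosen by name, as endothelial genes, and each was found in the count table by its Ensembl identifier. They are 33 of the 48709 genes of the table, and all 33 passed the filter on low counts, which left 31999 genes tested. The cells came from Tg:Pax7-nGFP mice of strain C57BL/6, in which a nuclear GFP driven by Pax7 marks the muscle stem cell, and were taken from pectoral, forelimb and hindlimb muscle. All groups were fixed in 0.5% paraformaldehyde. T0 (3 replicates) was fixed as whole muscle for 1 h at 4 °C before the cells were freed, so that it holds cells as they were in the tissue. T3 (4 replicates) was isolated by the usual protocol and fixed after sorting, for 30 min on ice. T5 (2 replicates, each the sum of 2 libraries with the same letter) had a further 2 h at 37 °C, before the isolation according to the treatment label and after it according to the description of the series. Age, sex and the number of animals are not given in the sources used here, and nothing says that replicates came from separate animals, so a p-value here speaks only of variation among the samples at hand, part of which may be technical.

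Endothelial cells line the vessels and in muscle form a dense capillary bed beside the fibres and the stem cells. Their junctions are built of VE-cadherin, PECAM1 and claudin-5, their growth and survival depend on VEGF and angiopoietin receptors, and their identity is kept by ETS and SOXF transcription factors. None of these genes marks the muscle stem cell by definition, yet several, such as Tek, which encodes the receptor Tie2, have been described in it. In RNA from many cells, fewer cells of a type and less RNA per cell cannot be told apart.

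Library totals ran from 49078859 to 102347035 counts over the 11 libraries. Levels were computed as CPM, that is counts relative to the TMM-scaled library total, and per kilobase of exon where genes are compared with each other. Among 1368 olfactory and other receptor and defensin genes that should be silent in muscle, and that overlap no other gene, the mean CPM per kb lay between 0.0342 and 0.0542 over the T0 replicates, between 0.0461 and 0.0559 over those of T3, and at 0.0569 and 0.0571 in those of T5. Of the 33 endothelial genes, 29 were at least 10 times above this background in T3, and the other 4 were Clec14a, Aplnr, Sox17 and Sox18. No endothelial gene was at 0 in any replicate. Tek, at 32.95, 48.2 and 29.4 CPM per kb in T0, T3 and T5, and Ece1, at 17.4, 22.7 and 22.6, had the highest levels. Pecam1 and Cdh5, the genes most used to define endothelium, reached 10.6 and 9.87 CPM per kb in T3. In 11 of the 33 genes the annotation places another gene over part of the locus, and since the strand setting of the counting is not given in the sources used here, their counts are uncertain (Cdh5, Ptprb, Eng, Ramp2, Sox17, Fli1, Nos3, Ece1, Plvap, Egfl7 and Rasip1).

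**Figure D1:**
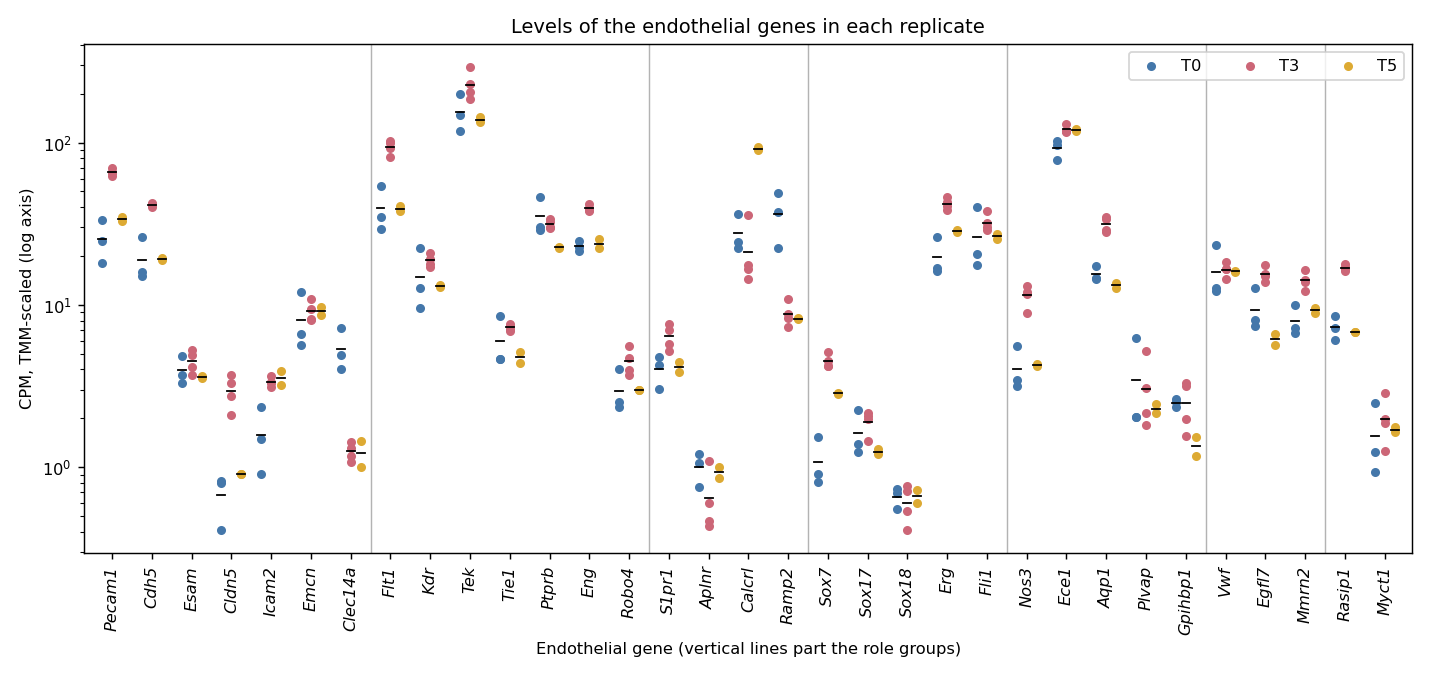
Level of each endothelial gene (x axis) in CPM on a log axis (y axis), with a point per replicate, a colour per group and a black bar at the group mean. Tek and Ece1 lie highest, most genes peak in T3, and Clec14a and Ramp2 lie lower in all T3 and T5 replicates than in all T0 replicates.

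The third T0 replicate stood apart before any comparison was made. It had the highest level of the T0 replicates in 26 of the 33 endothelial genes (78.8%), against 36.4% of all genes tested. The ratio of its level to the mean of T0 replicates 1 and 2 had a median of 1.56 over the endothelial genes (range 0.52 to 3.06) and of 0.857 over all genes, and it exceeded 1.5 in 19 of 33 (57.6%), against 25.3% of all genes. Plvap, a component of fenestral diaphragms, had the highest ratio, 3.06, while Rasip1, Ece1, Tek, Clec14a and Ramp2 lay below 1, at 0.98, 0.79, 0.67, 0.66 and 0.52. The same ratio had a median of 1.51 over 34 other endothelial genes, 1.84 over 15 monocyte and macrophage genes, 2.30 over 11 lymphocyte genes, 1.54 over 15 genes of fibro-adipogenic progenitors and fibroblasts, 1.38 over 13 pericyte and smooth muscle genes, 1.23 over 9 erythroid genes, 0.94 over 10 Schwann cell genes and 0.87 over 16 myofibre genes. Over 12 muscle stem cell genes it was 0.69, and all 12 lay below 1. Background over the silent genes was also highest in that T0 replicate (0.0542 CPM per kb, against 0.0342 and 0.0396). Calls and counts against T0 that change without it are given below with and without it. T0 replicate 3 was singled out by its high levels of the endothelial genes themselves. Leaving it out thus raises T3 and T5 against T0 in most of them by construction, and is not independent support.

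**Figure D2:**
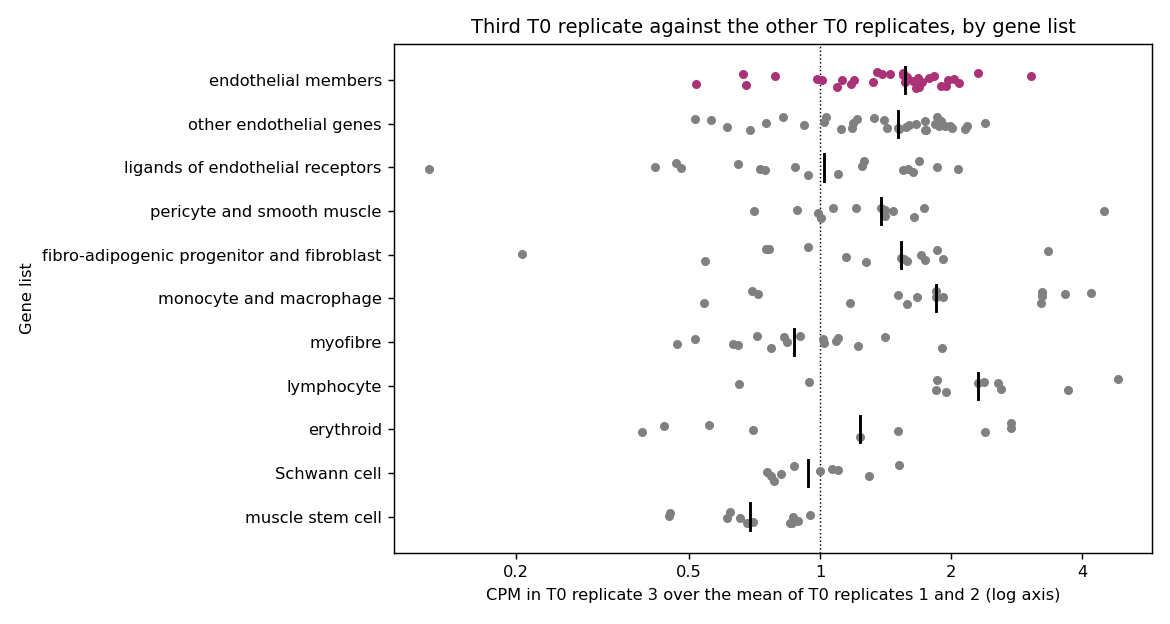
Level in T0 replicate 3 divided by the mean of T0 replicates 1 and 2 (x axis, log scale), with a point per tested gene and a black bar at the median of each list (y axis); vertical scatter within a list has no meaning. Most endothelial genes lie right of 1 (median 1.56), with Ramp2, Clec14a, Tek, Ece1 and Rasip1 to the left, and the muscle stem cell genes all lie left of it.

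After the standard isolation, most endothelial transcripts that changed were higher than in cells fixed in the tissue. In T3 against T0, 14 of the 33 genes were higher and 2 lower at an adjusted p under 0.05 (edgeR), while 15% of all genes tested were higher and 22.9% lower. The median log2 fold change was 0.38 over the endothelial genes and 0.05 over all genes, and it was above 0 in 26 of the 33. In 15 genes every T3 replicate lay above every T0 replicate (16.2% of all genes did so), in 2 every T3 replicate lay below (22% of all genes), and in 16 the groups overlapped. Without T0 replicate 3, chosen from these same levels, 21 of the 33 were higher and 2 lower, and the median was 0.74. In that fit 22.4% of all genes were higher and 28.1% lower. The added calls were Emcn, Kdr, Tie1, Robo4, Fli1, Vwf and Myct1.

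With the additional 2 h, the direction turned for part of the genes. In T5 against T3, 8 of the 33 were lower and 1 higher, against 0.888% and 1.28% of all genes, and the median log2 fold change was −0.58 over the endothelial genes and 0.05 over all genes. All 8 genes that were lower in T5 were among the 14 that were higher in T3: Pecam1, Cdh5, Cldn5, Flt1, Nos3, Aqp1, Egfl7 and Rasip1. In 22 genes both T5 replicates lay below every T3 replicate (18.9% of all genes did so), in 1 both lay above (19.3% of all genes) and in 10 they overlapped. Leaving out either T5 replicate left no gene called lower by edgeR (8 at an unadjusted p under 0.05 without replicate A and 10 without replicate B), and 6 and 7 called lower by DESeq2; the log2 fold change of Cldn5, for example, was −1.70 in both fits. T5 against T0 gave 3 genes higher (Icam2, Calcrl and Sox7) and 4 lower (Clec14a, Ramp2, Ptprb and Gpihbp1), against 13.2% and 22.5% of all genes. Without T0 replicate 3, Pecam1 (log2 0.66, adjusted p = 0.0048), Emcn (0.59, 0.0173), Erg (0.79, 0.000647) and Fli1 (0.46, 0.0312) were also called higher, which made 7 of 33, where 26.2% of all genes were higher. The count of lower genes was 2 without T0 replicate 2, T5 replicate A or T5 replicate B. The 3 comparisons share their samples, so that a T3 level that is high by chance raises one change and lowers the other.

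**Figure D3:**
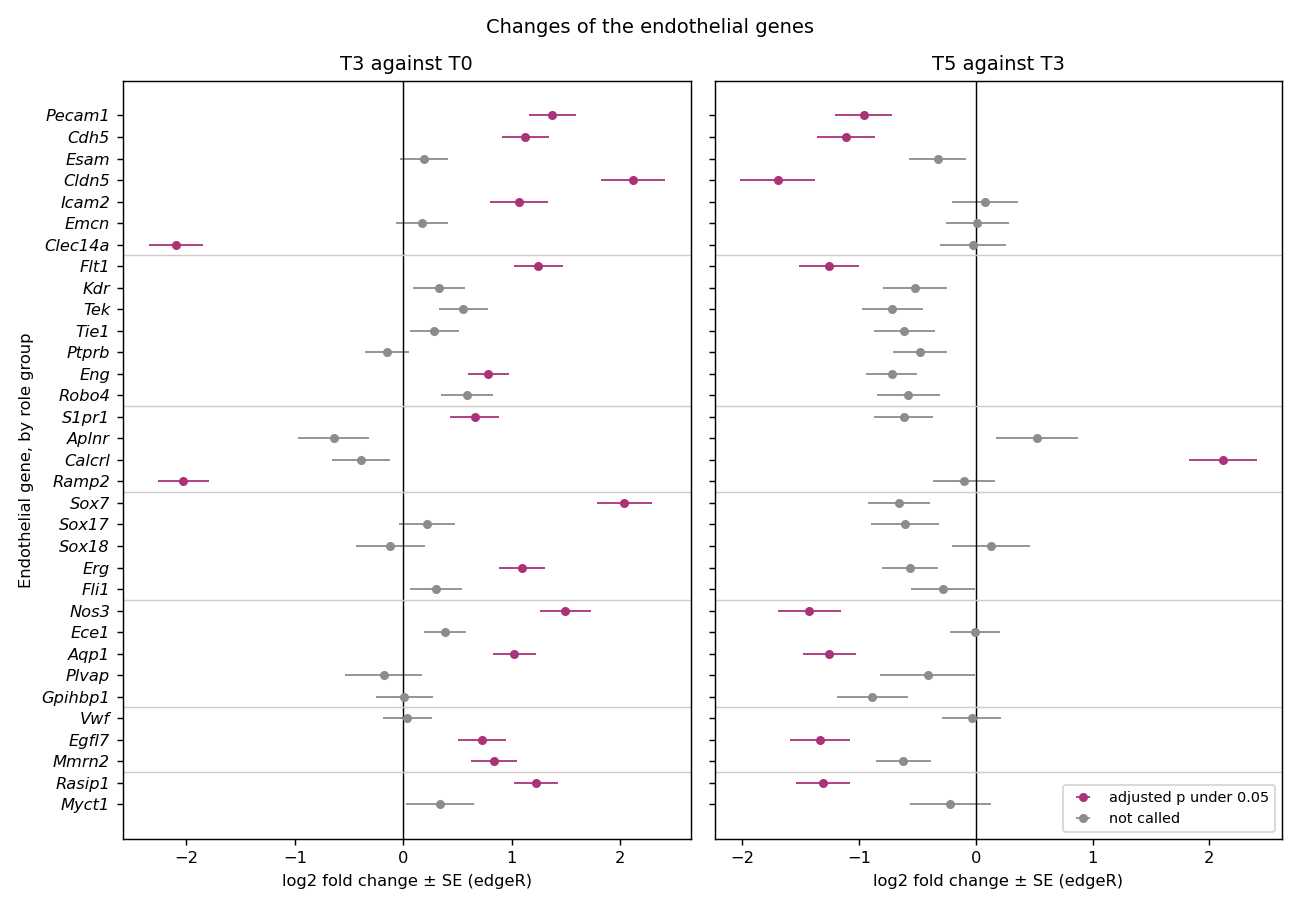
Log2 fold change with its standard error (x axis) of each endothelial gene (y axis, by role group) in T3 against T0 (left) and T5 against T3 (right), with genes at an adjusted p under 0.05 in colour. The 14 higher genes on the left include all 8 lower genes on the right, Clec14a and Ramp2 lie far to the left in the first comparison only, and Calcrl lies far to the right in the second.

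Promoter sequence was looked at for genes that rose and then fell and for the most abundant gene. RefSeq windows of 250 bases before the start of the gene (build GRCm38.p6) were at hand for 16 of the 33 genes. They were searched for AGGAAG and its reverse complement CTTCCT, a core that ETS factors such as Erg and Fli1 can bind, counted where either occurs. It was in 9 of the 16 windows (56.25%) and in 7878 of the 27025 windows of all genes (29.2%). A match is a description of letters only, not evidence of binding. The windows of Cldn5 (chr16:18776597-18776846, plus strand), Flt1 (chr5:147726012-147726261, minus strand) and Aqp1 (chr6:55336049-55336298, plus strand), which rose in T3 and fell in T5, and that of Tek (chr4:94739039-94739288, plus strand), the most abundant gene, are shown 5′ to 3′ with matches in capitals.
Cldn5: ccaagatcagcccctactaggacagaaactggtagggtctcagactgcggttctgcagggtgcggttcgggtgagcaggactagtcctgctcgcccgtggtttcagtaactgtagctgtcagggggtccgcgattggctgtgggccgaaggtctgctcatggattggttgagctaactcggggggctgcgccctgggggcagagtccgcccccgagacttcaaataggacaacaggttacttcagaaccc
Flt1: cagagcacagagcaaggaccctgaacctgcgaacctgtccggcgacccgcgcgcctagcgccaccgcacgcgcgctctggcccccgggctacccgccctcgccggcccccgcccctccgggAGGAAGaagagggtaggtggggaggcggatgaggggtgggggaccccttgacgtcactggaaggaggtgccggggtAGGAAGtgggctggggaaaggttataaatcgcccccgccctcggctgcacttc
Aqp1: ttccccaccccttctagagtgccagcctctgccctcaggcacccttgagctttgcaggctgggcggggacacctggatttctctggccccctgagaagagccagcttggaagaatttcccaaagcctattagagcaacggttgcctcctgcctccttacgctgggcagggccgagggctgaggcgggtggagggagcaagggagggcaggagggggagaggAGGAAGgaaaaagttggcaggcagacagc
Tek: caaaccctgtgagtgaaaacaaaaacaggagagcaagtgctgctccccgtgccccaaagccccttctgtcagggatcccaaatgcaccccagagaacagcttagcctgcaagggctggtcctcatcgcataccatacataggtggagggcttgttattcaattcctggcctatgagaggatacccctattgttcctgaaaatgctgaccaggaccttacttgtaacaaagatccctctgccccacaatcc
Flt1 held 2 matches and Aqp1 1, while Cldn5 and Tek held none in these letters. Windows were also at hand for Egfl7 (3 matches) and Rasip1 (1 match), which likewise rose in T3 and fell in T5, and are not shown.

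The junction and adhesion genes held 4 of the 14 higher and 1 of the 2 lower genes. Pecam1 (ENSMUSG00000020717.19, chr11:106654217-106750628, GRCm38), an adhesion molecule of endothelial contacts and also of platelets and leukocytes, stood at 18.2, 24.7 and 33.5 CPM in T0, at 65.3, 69.9, 65.7 and 62.3 CPM in T3 and at 32.7 and 34.9 CPM in T5. Every T3 replicate lay above all others, and T5 overlapped T0. Pecam1 rose by 1.37 ± 0.22 (log2, SE) in T3, adjusted p = 1.78e-05, and fell by 0.96 ± 0.25 in T5 against T3, adjusted p = 0.0387. The call of the fall was lost whichever T3 or T5 replicate was left out, with an adjusted p from 0.0731 (without T3 replicate 3) to 0.579 (without T5 replicate A).

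Cdh5, which encodes VE-cadherin, the adherens junction cadherin of endothelium, measured 15.8, 15.1 and 26.0 CPM in T0, 41.3, 42.7, 39.9 and 42.1 CPM in T3, and 18.9 and 19.6 CPM in T5. T3 was again above both other groups in each replicate, and its 4 values lay within 1.07-fold of each other. The changes were 1.124 ± 0.215 (adjusted p = 0.000167) and −1.11 ± 0.25 (adjusted p = 0.0148). Cldn5 (ENSMUSG00000041378.2), the claudin of endothelial tight junctions, was scarce, at 0.801, 0.412 and 0.820 CPM in T0, 3.69, 2.73, 2.10 and 3.29 CPM in T3, and 0.908 and 0.906 CPM in T5. Its rise in T3, 2.12 ± 0.29 (adjusted p = 3.3e-06), and its fall in T5, 1.70 ± 0.32 on the log2 scale (adjusted p = 0.00342), had the greatest size of any endothelial gene in each of these directions.

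Icam2, an adhesion molecule for leukocytes, followed another course, with 0.909, 1.49 and 2.33 CPM in T0, 3.36, 3.29, 3.64 and 3.12 CPM in T3, and 3.90 and 3.19 CPM in T5. It was higher in each T3 and T5 replicate than in any T0 replicate, by 1.07 ± 0.27 in T3 (adjusted p = 0.00232) and by 1.15 ± 0.30 in T5 against T0 (adjusted p = 0.00403, and 0.0531 without T5 replicate A), and T5 overlapped T3. Clec14a, a C-type lectin of vessel wall and sprout, went the other way. It fell from 7.25, 4.88 and 4.02 CPM in T0 to 1.44, 1.32, 1.08 and 1.17 CPM in T3, and stood at 1.44 and 1.00 CPM in T5. The groups T0 and T3 did not overlap, and the change was −2.10 ± 0.25 (adjusted p = 4.13e-07). Clec14a overlaps no other gene, and it was one of the few endothelial genes below the level of the other T0 replicates in T0 replicate 3.

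Emcn, the sialomucin endomucin of capillaries and veins, had 5.65, 6.58 and 12.04 CPM in T0, 10.8, 8.08, 9.45 and 8.14 CPM in T3, and 8.64 and 9.75 CPM in T5. Its groups overlapped throughout, T0 replicate 3 lay above all T3 replicates, and Emcn was called higher in T3 only without that replicate (log2 0.58, adjusted p = 0.0115). Esam, an adhesion molecule of endothelium and platelets, ranged from 3.31 to 5.28 CPM over all replicates and was called in none of the 3 comparisons.

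Among 7 growth factor receptors and their partners, Flt1 and Eng were higher in T3 and none was lower. Flt1, the VEGF receptor 1, which also binds PlGF and VEGF-B, had 29.4, 35.0 and 54.3 CPM in T0, 81.6, 101.8, 92.6 and 99.3 CPM in T3, and 37.9 and 40.5 CPM in T5. T3 lay above both other groups in every replicate, with changes of 1.25 ± 0.22 (adjusted p = 7.75e-05) and −1.26 ± 0.26 (adjusted p = 0.00723). Eng, the TGF-beta coreceptor endoglin, was at 22.7, 21.4 and 24.7 CPM in T0, 38.0, 39.3, 38.6 and 41.6 CPM in T3, and 22.3 and 25.5 CPM in T5. The T3 values were above all others, by 0.78 ± 0.19 against T0 (adjusted p = 0.00176), and T5 against T3 was −0.72 ± 0.22 (adjusted p = 0.0923), which DESeq2 called (log2 −0.83, adjusted p = 0.0040).

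Tek (ENSMUSG00000006386.15, chr4:94739289-94874976), the angiopoietin receptor, had 199.8, 148 and 118 CPM in T0, 228, 185, 204 and 292 CPM in T3, and 143 and 134 CPM in T5. Its T0 and T3 replicates overlapped, with a change of 0.55 ± 0.23 (adjusted p = 0.0594), and both T5 replicates lay below all T3 replicates (log2 −0.72 ± 0.26, adjusted p = 0.201). Tek was called higher in T3 under 4 other settings, among them the fits without T0 replicate 1 or without T3 replicate 2. Unlike most of the genes, it was lowest, not highest, in T0 replicate 3.

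The other 4 of this group were called in neither T3 against T0 nor T5 against T3. Kdr, the VEGF receptor 2 that carries most VEGF signalling in endothelium, ranged from 9.51 to 22.6 CPM over the T0 replicates and from 17.0 to 20.8 CPM over the T3 replicates. Tie1, the partner receptor of Tie2, ranged from 4.65 to 8.52 CPM in T0 and from 6.94 to 7.65 CPM in T3, and Robo4, an endothelial receptor of the roundabout family, from 2.34 to 4.03 and from 3.72 to 5.57 CPM. In all 3 it was T0 replicate 3 that overlapped T3, and all 3 were called higher without it (log2 0.76 for Kdr, 0.64 for Tie1 and 0.88 for Robo4). Robo4, at an adjusted p of 0.0568 with all replicates, was also called by DESeq2 (adjusted p = 0.0306). Ptprb, the phosphatase that restrains Tie2 and VE-cadherin signalling, ranged from 29.0 to 46.0 CPM in T0 and from 29.6 to 33.9 CPM in T3, and was lower in T5 against T0 (22.7 and 22.6 CPM, log2 −0.63 ± 0.25, adjusted p = 0.0481), which did not pass when T0 replicate 2 was left out (adjusted p = 0.0518), nor without T5 replicate A (0.266) or T5 replicate B (0.256).

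**Figure D4:**
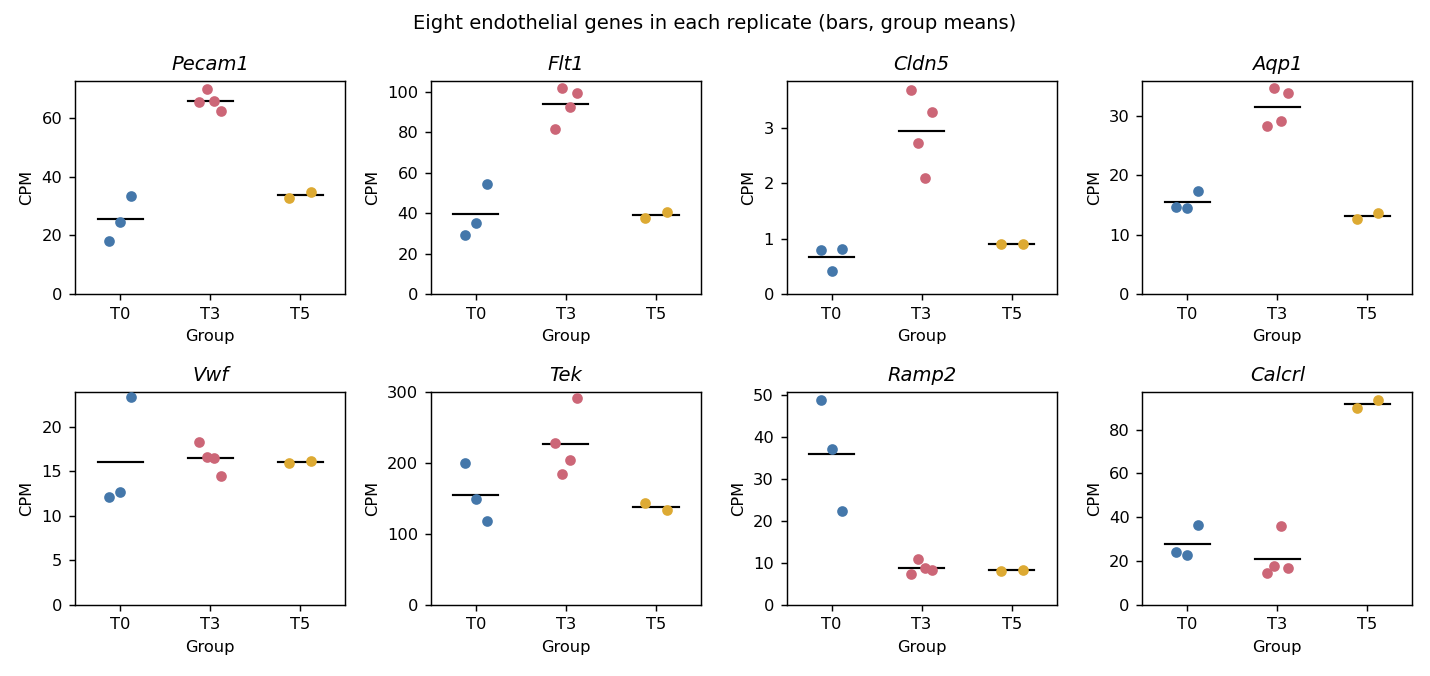
CPM on a linear axis from 0 (y axis) of 8 endothelial genes in T0, T3 and T5 (x axis), with a point per replicate and a bar at each group mean. Pecam1, Flt1, Cldn5 and Aqp1 are high in T3 alone, Vwf stays near 16 CPM with T0 replicate 3 above the rest, Tek overlaps between T0 and T3, Ramp2 is high in T0 alone and Calcrl in T5 alone.

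Of the 3 G protein-coupled receptors and their partner, Calcrl was high in T5 and Ramp2 low in T3 and T5. Calcrl (ENSMUSG00000059588.13, chr2:84330626-84425411) and Ramp2 (ENSMUSG00000001240.13, chr11:101246028-101259546) together encode the adrenomedullin receptor, CALCRL being the receptor and RAMP2 the protein that takes it to the membrane and sets its ligand. Calcrl had 24.3, 22.6 and 36.3 CPM in T0, 14.3, 17.5, 36.0 and 16.7 CPM in T3, and 89.8 and 93.3 CPM in T5. T0 and T3 overlapped through the third replicate of T3 (log2 −0.39 ± 0.27, adjusted p = 0.281, and −0.78, adjusted p = 0.0103, without it), whereas both T5 replicates lay above all others. In T5 it was higher by 2.12 ± 0.29 than in T3 (adjusted p = 9.53e-05) and by 1.72 ± 0.31 than in T0 (adjusted p = 0.000129), and it was the only endothelial gene higher in T5 than in T3, also without T5 replicate A or B.

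Ramp2 showed 48.8, 37.2 and 22.3 CPM in T0, 7.29, 10.8, 8.82 and 8.34 CPM in T3, and 8.14 and 8.34 CPM in T5. No T0 replicate overlapped the others, and it changed by −2.03 ± 0.23 in T3 (adjusted p = 3e-07) and by −2.13 ± 0.30 in T5 (adjusted p = 7.48e-06), both against T0. Its locus overlaps that of Vps25, so reads of the latter may be among these counts. Ramp2 was thus low in T3 and T5 alike, whereas Calcrl had its lowest mean in T3 (21.1 CPM) and its highest in T5 (91.5 CPM). S1pr1, the receptor for sphingosine 1-phosphate, had 3.05, 4.79 and 4.27 CPM in T0, 5.74, 7.005, 5.23 and 7.58 CPM in T3, and 3.88 and 4.44 CPM in T5. T3 lay above both other groups, by 0.66 ± 0.22 against T0 (adjusted p = 0.0223), a call lost without T0 replicate 1, T3 replicate 2 or T3 replicate 4 (adjusted p of 0.0926, 0.0633 and 0.0808). Aplnr, the apelin receptor, ranged from 0.755 to 1.198 CPM in T0 and from 0.432 to 1.09 CPM in T3, near background. It was not called (log2 −0.64 ± 0.33, adjusted p = 0.138), but was lower without T3 replicate 1 (log2 −1.01, adjusted p = 0.0185).

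Of the 5 transcription factors, Sox7 and Erg were higher in T3. Sox7, of the SOXF group, had 0.909, 0.807 and 1.53 CPM in T0, 5.09, 4.19, 4.50 and 4.19 CPM in T3, and 2.88 and 2.81 CPM in T5. The 3 groups did not overlap, and it was higher than in T0 by 2.04 ± 0.25 in T3 (adjusted p = 8.38e-07) and by 1.38 ± 0.28 in T5 (adjusted p = 0.000419). Erg, an ETS factor that sustains endothelial identity, had 16.1, 16.9 and 26.1 CPM in T0, 46.4, 38.5, 40.8 and 42.7 CPM in T3, and 28.1 and 28.8 CPM in T5. These groups did not overlap either, with changes of 1.10 ± 0.21 in T3 (adjusted p = 0.000183) and −0.57 ± 0.24 in T5 against T3 (adjusted p = 0.296).

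Fli1, a related ETS factor also active in blood cells, had 17.7, 20.6 and 40.0 CPM in T0, 37.7, 29.0, 30.0 and 31.8 CPM in T3, and 25.6 and 27.2 CPM in T5. The third T0 replicate lay above every T3 replicate, and Fli1 was called higher in T3 only without it (log2 0.74). Sox17 and Sox18, the other SOXF genes, ranged from 1.198 to 2.24 and from 0.409 to 0.763 CPM over all replicates, and neither was called. Sox7 thus stood apart from the other SOXF genes in its values, with log2 changes of 2.04, 0.22 and −0.12 for the 3 genes in T3; the differences between them were not tested. In T5 against T3 no transcription factor was called by edgeR or DESeq2, and 2 fell at an unadjusted p under 0.05.

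Among 5 enzymes, channels and capillary surface proteins, Nos3 and Aqp1 were the genes called in T3 against T0 and in T5 against T3. Nos3, the endothelial nitric oxide synthase, had 3.44, 3.14 and 5.56 CPM in T0, 8.96, 13.0, 11.7 and 11.96 CPM in T3, and 4.18 and 4.31 CPM in T5. Aqp1, the water channel of capillaries and erythrocytes, had 14.6, 14.5 and 17.4 CPM in T0, 28.2, 34.7, 29.1 and 33.8 CPM in T3, and 12.7 and 13.7 CPM in T5. For both, every T3 replicate lay above all T0 and T5 replicates. Nos3 changed by 1.49 ± 0.23 (adjusted p = 1.72e-05) and −1.43 ± 0.27 (adjusted p = 0.00355), and Aqp1 by 1.02 ± 0.20 (adjusted p = 0.000169) and −1.25 ± 0.23 (adjusted p = 0.00253). The Nos3 locus overlaps Atg9b, whereas that of Aqp1 overlaps no gene.

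Ece1, the endothelin-converting enzyme, which many cell types express, had 101.9, 97.0 and 78.5 CPM in T0, 117, 117, 129.9 and 118 CPM in T3, and 121 and 118 CPM in T5. Although every T3 replicate lay above every T0 replicate, the change of 0.38 ± 0.19 was not called (adjusted p = 0.133). Plvap had 2.03, 2.04 and 6.23 CPM in T0, 3.05, 1.81, 5.196 and 2.14 CPM in T3, and 2.43 and 2.15 CPM in T5. It was the gene that varied most between T3 replicates, 2.87-fold from lowest to highest, and its groups overlapped. Gpihbp1, which holds lipoprotein lipase on the capillary surface, ranged from 2.34 to 2.63 CPM in T0, from 1.54 to 3.32 CPM in T3 and from 1.17 to 1.54 CPM in T5, and was lower in T5 against T0 only (log2 −0.88 ± 0.32, adjusted p = 0.0336), which was not called without T0 replicate 2 (adjusted p = 0.0795), T5 replicate A (0.295) or T5 replicate B (0.0740).

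Of the 3 secreted and matrix genes, Egfl7 and Mmrn2 were higher in T3 and none was lower. Egfl7, a secreted factor of the vessel wall whose locus holds Mir126a and overlaps Agpat2, had 8.05, 7.38 and 12.6 CPM in T0, 17.6, 15.0, 13.9 and 15.4 CPM in T3, and 5.64 and 6.63 CPM in T5. It rose in T3 by 0.73 ± 0.22 (adjusted p = 0.0102, and 0.0914 without T0 replicate 2) and fell in T5 against T3 by 1.34 ± 0.26 on the log2 scale (adjusted p = 0.00435), with no overlap between any of the groups. Mmrn2, the matrix protein multimerin 2, a ligand of CLEC14A, had 6.69, 7.19 and 10.02 CPM in T0, 12.2, 14.2, 16.5 and 13.9 CPM in T3, and 8.89 and 9.59 CPM in T5. T3 was above both other groups (0.83 ± 0.21 against T0, adjusted p = 0.00262). Vwf, the clotting factor stored in endothelial granules and platelets, had 12.1, 12.6 and 23.4 CPM in T0, 18.3, 16.6, 16.5 and 14.5 CPM in T3, and 15.99 and 16.1 CPM in T5. Its mean hardly moved (log2 0.04 ± 0.23), the third T0 replicate was above all others, and without it Vwf was called higher in T3 (log2 0.41).

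The last pair were Rasip1, a Ras-interacting protein needed for vessel lumens, and Myct1, a membrane protein of endothelium. Rasip1 had 8.53, 6.08 and 7.17 CPM in T0, 16.1, 16.7, 17.1 and 17.9 CPM in T3, and 6.82 and 6.83 CPM in T5. All T3 replicates lay above all others, with changes of 1.23 ± 0.20 (adjusted p = 2.93e-05) and −1.31 ± 0.23 (adjusted p = 0.0020). Rasip1 shares its locus with Izumo1 and was not raised in T0 replicate 3 (ratio 0.98). Myct1 had 1.23, 0.927 and 2.48 CPM in T0, 2.85, 1.26, 1.87 and 1.97 CPM in T3, and 1.76 and 1.64 CPM in T5, with overlap in every comparison, and it was called higher in T3 only without T0 replicate 3 (log2 0.88).

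Whether the endothelial genes moved alike was examined in 3 ways. The spread of their log2 fold changes (SD) was 0.91 in T3 against T0, from −2.10 to 2.12, where all genes had 1.04 (1.002 and 1.16 without T0 replicate 3), and 0.70 in T5 against T3, from −1.70 to 2.12, where all genes had 0.53. Between the T3 replicates, highest over lowest level had a median of 1.33, from 1.07 in Cdh5 to 2.87 in Plvap. It was within 1.5-fold in 25 of 33 genes, and it was not computed over all genes. Last, each gene was taken relative to Pecam1 in the same replicate, a reference chosen after its values were seen, and one that itself rose 2.59-fold in T3. Of the other 32 genes, 21 had a lower ratio in each T3 than in each T0 replicate, 1 (Sox7) had a higher one and 10 overlapped. Without T0 replicate 3, 23 were lower, with Tek and Aqp1 added, and 8 overlapped. In both T5 replicates the ratio lay above every T3 replicate in 20 genes, below in 7 and overlapped in 5. These counts were not made over all genes, whose median log2 fold change was 0.05 in both comparisons. A gene that did not change would have a lower ratio in T3 and a higher one in T5, since Pecam1 rose and fell.

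Cdh5 per Pecam1 had a mean of 0.755 in T0, 0.631 in T3 and 0.569 in T5, and Flt1 per Pecam1 one of 1.55, 1.43 and 1.16. Both overlapped between T0 and T3 and lay below all T0 and T3 replicates in T5. Nos3 (0.161, 0.173 and 0.126) and Erg (0.782, 0.642 and 0.842) also overlapped between T0 and T3, while in T5 Nos3 lay below and Erg above every T3 replicate. Overlap did not mean an equal mean ratio, since that of Tek went from 6.85 in T0 to 3.48 in T3 and that of Myct1 from 0.0599 to 0.0304. Among the genes without overlap, Vwf per Pecam1 went from 0.626 to 0.250 and 0.476, Ptprb from 1.4001 to 0.480 and 0.670, and Fli1 from 1.00 to 0.489 and 0.781. Calcrl went from 1.11 to 0.321 and 2.71 and Ramp2 from 1.62 to 0.134 and 0.244. These ratios follow in part from the rise and fall of Pecam1 itself. By their own log2 fold changes the endothelial genes ranged from −2.10 to 2.12 in T3 against T0, with 14 called higher and 2 lower. Differences between the genes were not tested, nor was the contribution of other cells to any of them.

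Other genes of the endothelium and its ligands, listed beside the 33, also split. Over all genes tested, 15% were higher and 22.9% lower in T3, and 1.28% and 0.888% in T5 against T3. Of 34 further endothelial genes, 17 were higher and 4 lower in T3 (median log2 fold change 0.56), and in T5 against T3 3 were lower (Cyyr1, Fabp4 and Ly6c1; median −0.32) and none higher by edgeR or DESeq2 or at an unadjusted p under 0.05. The 4 with the smallest p in T3 were Apold1, an early response gene of endothelium (log2 3.07 ± 0.28), Rgcc, a cell cycle regulator (2.15 ± 0.22), Bcl6b, a transcriptional repressor (2.15 ± 0.24), and Ets1 (1.88 ± 0.21), which was at 27.0 to 39.5 CPM in T0 and 109 to 138 CPM in T3. Lmo2, Lyl1, Ephb4 and Nr2f2 were lower. Without T0 replicate 3, 21 were higher and 5 lower in T3 (median 0.87), where 22.4% and 28.1% of all genes were. Tal1, Flt4, Adgrl4 and She were added to the higher and Tspan7 to the lower genes.

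Of 18 ligands for the endothelial receptors, 6 were higher and 5 lower in T3, and 2 were higher and 2 lower in T5 against T3. Edn1, endothelin, was also called higher in T3 without T0 replicate 3 (log2 0.82). Adm, adrenomedullin, the ligand of the Calcrl and Ramp2 receptor, had 0.0866, 0.120 and 0.214 CPM in T0, 2.11, 1.41, 2.16 and 1.21 CPM in T3, and 4.43 and 4.09 CPM in T5. It rose at both steps without overlap, by 3.53 ± 0.35 (adjusted p = 4.18e-08) and by 1.30 ± 0.28 (adjusted p = 0.0119). Sphk1, the kinase that makes the ligand of S1pr1, rose by 2.79 ± 0.26 in T3 and Dll4, a Notch ligand, by 1.93 ± 0.25, while Vegfb fell by 1.88 ± 0.25 on the log2 scale. Vegfa, the ligand of Flt1 and Kdr, named here after its values were seen, was at 17.9 to 48.1 CPM in T0, 117 to 179.5 CPM in T3 and 169 to 183 CPM in T5, higher in T3 by 1.99 ± 0.28.

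Markers of other cells were measured beside these genes, and their part in the results was not tested. Of all genes, 15% were higher and 22.9% lower in T3, and 1.28% and 0.888% in T5 against T3. The summed level of the 33 endothelial genes was 568 to 662 CPM over the T0 replicates, 865 to 966 in T3 and 659 to 664 in T5. That of 12 muscle stem cell genes was 5629 to 8481, 2940 to 3545 and 2233 to 2323 CPM. Of these 12, 3 were higher and 5 lower in T3 (median log2 fold change −0.15), and 0 were higher and 4 lower in T5 against T3. Pax7, the defining factor, fell by 3.52 ± 0.24 in T3 and Myod1, of activated cells, rose by 3.54 ± 0.29, the 2 extremes of this list. Monocyte and macrophage genes summed to 110.4 to 127, 269 to 336 and 277 to 279 CPM, and 5 of 15 were higher and 1 lower in T3. Most of that sum was Cx3cr1 (55.3 to 86.3 CPM in T0, 218 to 288 in T3), whose annotated locus overlaps 9 other genes; Cd68 and Cd14 rose and Mpeg1 fell. In T5 against T3 none of these 15 was called by edgeR or DESeq2, and 1 fell at an unadjusted p under 0.05.

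Of 16 myofibre genes, 11 were higher and 3 lower in T3, and 6 were lower in T5 against T3 (medians 1.13 and −0.61). These 6 (Acta1, Ckm, Myh4, Mylpf, Tnni2 and Tnnc2) were all higher in T3, a course by which the 8 endothelial genes had been picked. Actn3 and Atp2a1 were among the lower in T3, and Myh2 and Myh7 were not called. Myh4, a fast myosin heavy chain, was at 3.08 to 4.62 CPM in T0, 11.9 to 23.7 CPM in T3 and 3.75 to 4.15 CPM in T5. Summed over the list, the level was between 202 and 279 CPM in T0, between 202 and 282 CPM in T3 and between 179.5 and 184 CPM in T5. Pericyte and smooth muscle genes summed to 897 to 1352, 759 to 985 and 556 to 579 CPM, and 2 of 13 were higher and 4 lower in T3, with Rgs5 and Des higher and Notch3 and Kcnj8 among the lower. Most of that sum was Notch3 (mean 738, 214 and 93.1 CPM in T0, T3 and T5) and Des (209, 469 and 331 CPM). Genes of fibro-adipogenic progenitors and fibroblasts summed to 903 to 1351, 502 to 838 and 673 to 676 CPM, with 4 of 15 higher (among them Col1a2) and 4 lower (among them Col3a1, Gsn and Dpt). Here most of the sum was Col3a1 (mean 490, 261 and 395 CPM in T0, T3 and T5) and Gsn (414, 220 and 134 CPM). Schwann cell genes summed to 109 to 138, 79.1 to 101 and 68.5 to 69.3 CPM, with 3 of 10 higher and 2 lower. Lymphocyte genes (8.82 to 17.2, 10.7 to 13.4 and 13.3 to 14.2 CPM) had 1 of 11 higher, and erythroid genes (37.0 to 39.5, 13.5 to 31.2 and 29.0 to 41.8 CPM) 1 of 9 lower, Alas2. No gene of any of these lists was at 0 in any replicate. Without T0 replicate 3, the counts of higher and lower genes in T3 were 7 and 1 of 15 for monocytes and macrophages, 12 and 3 of 16 for myofibres, 4 and 5 of 13 for pericytes and smooth muscle, and 6 and 4 of 15 for fibro-adipogenic progenitors and fibroblasts. They were 2 and 5 of 12 for muscle stem cells, 2 and 2 of 10 for Schwann cells and 4 and 1 of 11 for lymphocytes. Alas2 was again the erythroid gene called. In that fit 22.4% of all genes were higher and 28.1% lower, and no list was tested against these shares.

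**Figure D5:**
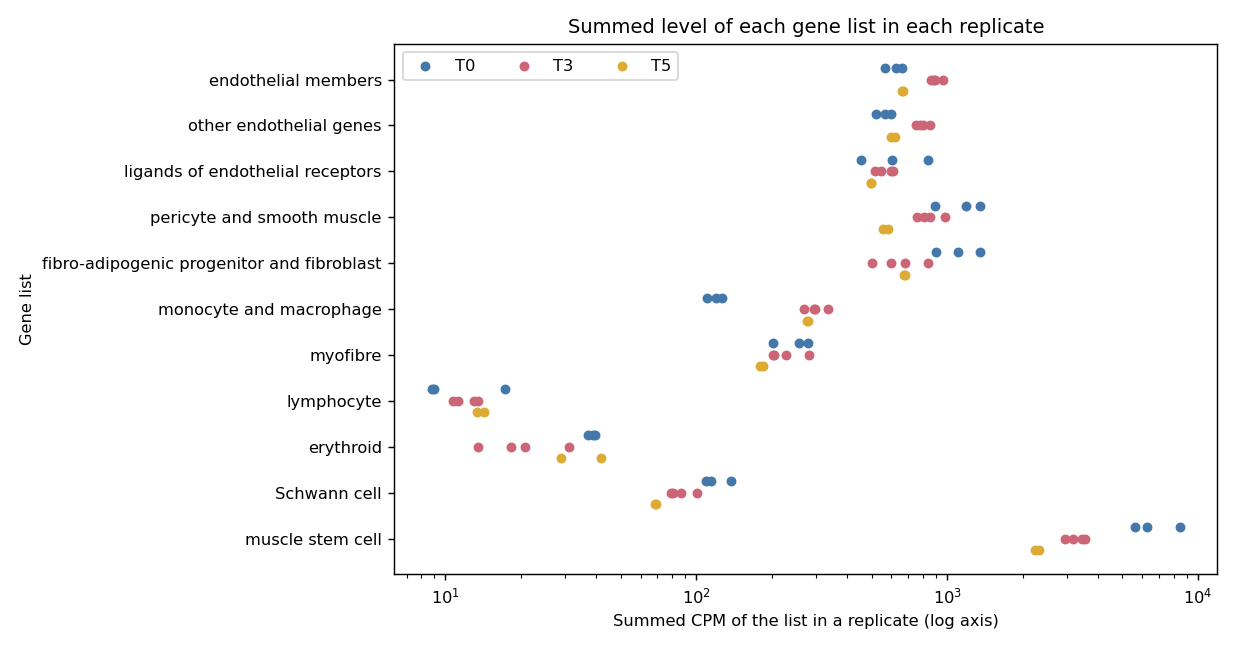
Summed CPM of each gene list (y axis) in each replicate, on a log axis (x axis), coloured by group. Both endothelial lists are highest in the 4 T3 replicates (865 to 966 CPM for the 33 genes), the monocyte and macrophage list is higher in T3 and T5 than in T0, and the muscle stem cell list is highest in T0. Tek and Ece1 are on average the largest parts of the sum of the 33 genes in each group.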

How the data were processed

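The deposited data are unnormalized read counts for 48709 genes in 11 libraries, in a single table. Per the submitters' processing notes, STAR 2.5.0a, featureCounts 1.4.6-p3, R 3.3.1, DESeq2 1.12.3 and the build GRCm38 were used; annotation release, strand setting and filters are not given in the sources used here. Per the labels' protocols, RNA came from fixed cells with a kit for formalin-fixed tissue and was made into directional total RNA libraries, read as 65-bp single ends, so that the depth sets the precision of low counts.

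Column names gave the groups; sample titles carry letters where T0 and T3 columns carry numbers, so replicates are named by column. Identifiers were matched to GENCODE vM21 without version, 48349 with an entry and 360 without. Counts were tested with edgeR 4.0.16 (R 4.3.3): TMM, filterByExpr, 1 quasi-likelihood fit of all groups, two-sided, Benjamini-Hochberg over 31999 genes, calls at 0.05. Standard errors were taken as the absolute log2 fold change over the square root of the F statistic. The script was tested on simulated data. Values per replicate are given for each gene called in T3 against T0 or T5 against T3, for the 3 highest per kb in each role group, and of other lists for up to 4 genes with the smallest p. The members and lists were chosen with earlier results of these data known. Alternatives were other scalings, DESeq2 1.42.0, other filters, fewer groups, separate T5 libraries, a replicate block and leaving out each replicate.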

Additional observations from a re-analysis of the deposited data

Results flagged for a closer look

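In the 4 T3 replicates, the level of 2 of the 33 endothelial genes had a highest value far from the other values (Dixon's ratio above its 95% critical value, as chance gives in about 1 in 20 groups). Calcrl was at 36.0 CPM in T3 replicate 3, against 14.3 to 17.5 CPM in the other T3 replicates (ratio 0.854). Ece1 was at 129.9 CPM in the same replicate, against 117 to 118 CPM in the others (ratio 0.936). T3 replicate 3 was the highest of the T3 replicates in 7 of the 33 endothelial genes (21.2%) and in 26.3% of all genes tested.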

How the results depend on the processing

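Over single endothelial genes and alternatives, 1225 of 1314 values kept the call or its absence, 44 lost a call and 45 gained one. None that was called in either fit changed direction, and direction was not compared where a gene was called in neither. Upper quartile scaling shifted the median of all genes from 0.05 to 0.32 (log2) in T3 against T0, with 22.4% higher and 18.1% lower in place of 15% and 22.9%, and the median of the endothelial genes to 0.69; in T5 it left 5 lower against T3, and 5 higher and 2 lower against T0. A mean CPM of at least 1 gave 5 higher and 2 lower in T5 against T0. Fits of only the groups compared gave 16 lower in T5 against T3, where 5.23% of all genes were lower, and 2 lower in T5 against T0. Among the 22 genes that overlap no other, 9 were higher and 1 lower in T3, 4 lower in T5 against T3 and 2 lower in T5 against T0. Leaving out each replicate in turn gave a T3 median of 0.37 to 0.74, 0 to 7 lower in T5 against T3, and 2 to 7 higher and 2 to 5 lower in T5 against T0. A replicate block by column number was fitted for T0 and T3 (13 higher, 2 lower, median 0.46). The deviations of same-numbered libraries correlated at −0.23, 0.37 and 0.31, and those of other pairs between −0.46 and 0.47. With so few libraries these values cannot settle whether same-numbered samples were paired. T5 columns carry no such number. DESeq2 without a T5 replicate was added after seeing the data.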
